A study of Medicago truncatula with 48 samples.

Results

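The comparison described here set Medicago truncatula embryos of nearly equal age side by side: embryos from plants under heat stress at 28 days after pollination (DAP) against embryos from plants at standard temperature at 26 DAP. Its members were chosen by their labels alone, as the 3 embryo libraries at stage S4 under heat stress and the 3 embryo libraries at stage S2 at standard temperature, 6 of the 48 libraries of the series and 6 of its 24 embryo libraries. All came from the reference genotype A17. Heat-stressed plants had a day temperature of 26 °C from flowering on and standard plants one of 20 °C; the night temperatures given in the labels differ from those in the study's methods and are not repeated here. S2 embryos already tolerate desiccation and are still filling, whereas S4 embryos belong to mature seeds that can survive storage; S1 precedes desiccation tolerance, and at S3 filling ends and longevity starts to build up. The embryos of this pair thus differed in stage as well as in temperature. At equal age these differences cannot be told apart by the pair alone, and the other 18 embryo libraries were used to set the values beside pairs in which stage or temperature was the same. RNA was taken from lots of ground tissue, and nothing in the labels says whether replicates came from separate plants, so the p-values below measure the spread between these libraries.

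In a legume seed the embryo grows by cell division, then fills with storage proteins and oil, and then dries. Desiccation tolerance, the capacity to survive the loss of nearly all water, is acquired during filling, and longevity, the capacity to stay alive in dry storage, is acquired late, while the seed matures. The embryo of M. truncatula is made mostly of the cotyledons, the storage organs that feed the seedling, and the endosperm and the seed coat surround it. Warm conditions after flowering are known to shorten seed filling in many crops. The transcript table identifies each of its 44473 transcripts by a locus code without a gene name, and 0 of these codes matched the gene table at hand, so transcripts are described below by their levels, chromosome, length and behaviour across tissues, and only 4 codes are printed.

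The 28-day heat-stress embryos spread their messages over far more transcripts than the 26-day standard embryos. Library totals were alike, with 18613496, 18707608 and 18732397 estimated counts in the heat-stress libraries and 19014014, 18507952 and 20084649 in the standard libraries. The 10 most abundant transcripts held 28.3%, 28.3% and 20.6% of the counts under heat stress, against 61.3%, 61.6% and 64.2% at standard temperature. The groups did not overlap, and the means of 25.7% ± 4.45 and 62.4% ± 1.59 (SD, n = 3 each) differed by -36.6 percentage points. An exact two-sided permutation test gave p = 0.1, the smallest value that 3 libraries against 3 allow. The 100 most abundant transcripts held 50.8%, 50.8% and 41.5% of the counts under heat stress, against 77.9%, 77.8% and 79.5% at standard temperature. The most abundant transcripts that together made up 0.5 of the counts numbered 92, 91 and 261 in the heat-stress libraries, against 5 in each standard library. Detection differed too: 24814, 24854 and 28160 transcripts had at least 1 count under heat stress, against 23989, 24033 and 23996 at standard temperature, and with a minimum of 10 counts the numbers were 18132, 18050 and 19101 against 17096, 17099 and 17074. These measures also did not overlap between the groups, each with p = 0.1 by the exact permutation test. The numbers detected depend in part on the shares above, since dominant transcripts leave fewer counts to all others in a library. Heat-stress replicate 3 had the highest number at both minimums.

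**Figure D1:**
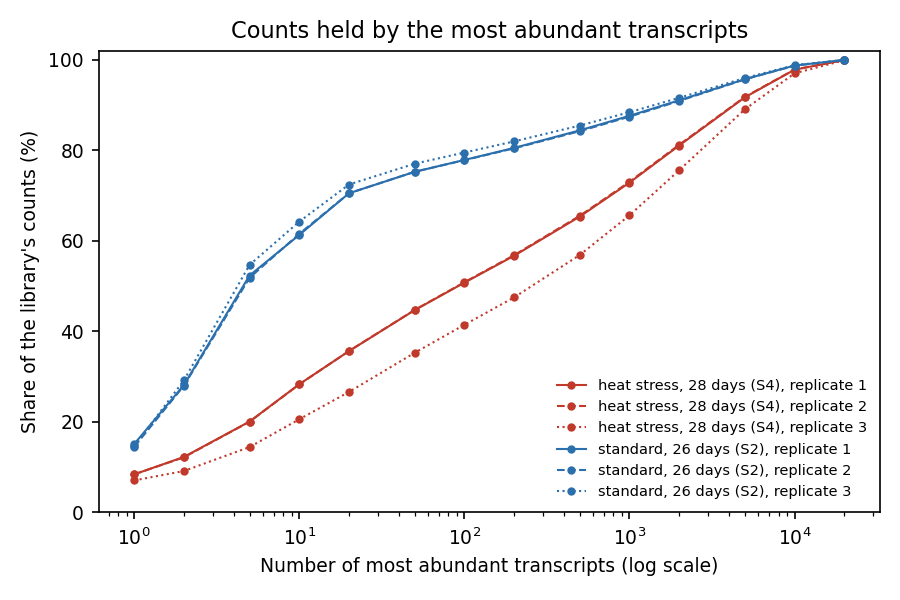
Share of a library's estimated counts (%, y axis) held by its most abundant transcripts, plotted against the number of transcripts counted (log scale), with 1 line per library. The 3 heat-stress lines lie below the 3 standard lines, and 5 transcripts are enough for 0.5 of the counts in every standard library, whereas the heat-stress libraries need between 91 and 261.

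Heat-stress replicate 3 stood apart from the other libraries of its group. A chi-square comparison of raw counts, in which 1 per degree of freedom is sampling noise, gave 1.86 between heat-stress replicates 1 and 2, but 54.5 and 56.5 between either of them and replicate 3. Among the standard libraries the values were 19.2, 26.8 and 6.94. All of these exceed sampling noise, so no libraries were merged. Heat-stress replicates 1 and 2 came closest to it, and the labels do not say whether they came from separate plants. If they did not, the heat-stress group holds fewer than 3 independent units, and its SD and p-values are to be read with that limit. The median SD of log2 CPM (counts scaled to a common library total) within a group was 0.257 under heat stress and 0.189 at standard temperature. Some results below are also given without heat-stress replicate 3, and the others are given only with it.

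Among the 10 most abundant transcripts of the standard embryos, the largest losses of share were those of transcripts on chromosome 1. The most abundant transcript of the standard embryos, on chromosome 1 and 2021 bases long, held 3.25%, 3.28% and 1.89% of the counts under heat stress, against 15.1%, 14.5% and 14.6% at standard temperature, a log2 fold change of -3.52 (SE 0.344, adjusted p = 5.68e-09, from the quasi-likelihood test of edgeR). The second, on chromosome 1 and 1880 bases long, held 3.85%, 3.76% and 2.08% under heat stress, against 13%, 13.5% and 14.6% at standard temperature. For both, every heat-stress library was below every standard library. The transcripts of rank 4 and rank 5 in the standard embryos, also on chromosome 1, averaged 1.96% and 1.06% under heat stress, against 7.41% and 6.71% at standard temperature. The most abundant transcript of the heat-stress embryos, on chromosome 7 and 1872 bases long, held rank 3 in the standard embryos and fell less, with 8.41%, 8.42% and 7.07% under heat stress against 8.93%, 10.4% and 11.9% at standard temperature (log2 fold change -1.54, adjusted p = 1.69e-05, edgeR). A transcript of 1628 bases on chromosome 7 fell out of the top ranks altogether. It averaged 0.0108% under heat stress, where it ranked 1169, against 1.53% and rank 8 at standard temperature. In the other direction, a transcript of 2505 bases on chromosome 2 held 1.77%, 1.71% and 1.74% under heat stress, against 0.115%, 0.134% and 0.132% at standard temperature (log2 fold change 2.61, adjusted p = 5.43e-11, edgeR), and it was seventh in the heat-stress embryos but rank 34 in the standard embryos. A transcript of 1346 bases on chromosome 6 held 1.17%, 1.25% and 1.02% under heat stress, against 0.117%, 0.133% and 0.157% at standard temperature. All 10 of the most abundant transcripts of the standard embryos were lower under heat stress in the test across all transcripts, and their log2 fold changes were also negative on library totals alone. Of the 10 most abundant transcripts of the heat-stress embryos, 2 were higher, 6 were lower and 2 did not pass the test.

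These shares affect the scale on which every other transcript is compared. When a few transcripts hold most of a library, all others are left with fewer counts, and the TMM normalization used for the tests corrects for this with a factor per library, here 1.25, 1.24 and 1.59 for the heat-stress libraries and 0.614, 0.613 and 0.571 for the standard libraries. On that scale the median log2 fold change over all transcripts was -0.02, whereas scaling to library totals alone moved it to 1.14. Fold changes below are therefore relative to the typical transcript of the embryo. They do not measure the amount of RNA per embryo, and with bulk tissue fewer cells of a type and less RNA per cell cannot be told apart.

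Most of the embryo transcriptome differed between these embryos of nearly equal age. Of 21992 transcripts tested, 14709 (66.9%) were called differentially expressed at an adjusted p below 0.01 with edgeR's quasi-likelihood test, fitted on all 24 embryo libraries. Of these, 7011 (31.9% of those tested) were higher and 7698 (35% of those tested) lower in the heat-stress embryos, so that 47.7% of the calls were in the higher direction. On the scale of library totals alone 16601 were called, 12651 higher and 3950 lower, or 76.2% higher. Differences were large: 11367 transcripts were called with an absolute log2 fold change of at least 1, 5243 higher and 6124 lower, and 4276 with an absolute value of 3 or more, 1615 higher and 2661 lower. Higher calls were the more numerous below 2 log2 units and lower calls above. Between 1 and 2 log2 units 2518 transcripts were higher and 2104 lower, between 3 and 5 units 1011 were higher and 1599 lower, and above 5 units 604 were higher and 1062 lower. The median absolute log2 fold change was 1.82 among those called. Without heat-stress replicate 3, 13761 transcripts were called, 13387 of them with the same direction as before.

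Some transcripts were counted in 1 group only. In 180 of the 44473 transcripts all 3 standard libraries were at 0 and all 3 heat-stress libraries held at least 10 counts. These had a median of 37.5 counts per library and a highest mean of 6381. Of these 180, 111 also held at least 10 counts in every S4 library at standard temperature. The reverse held for 87 transcripts, with a median of 21.7 counts per library and a highest mean of 518.7, and 67 of them held at least 10 counts in every S2 library under heat stress. In both groups 14411 transcripts held at least 10 counts in every library, 2968 did so in the heat-stress embryos only and 1689 in the standard embryos only. The minimum is on raw counts, and dominant transcripts left fewer counts to all others in the standard libraries. The larger numbers for the heat-stress embryos are therefore raised in part by the scale, and the size of that part was not tested. The calls were spread over the genome. By chromosome, 66.4% to 68.1% of the transcripts tested were called, against 66.9% overall. In the order of the locus codes, neighbours tended to share their direction: 24.0% of the tested transcripts were higher by at least 1 log2 unit, and the next code was also higher for 32.4% of them, with a longest run of 10. For the lower direction these shares were 27.9% and 33.5%, with a longest run of 11.

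Relative to the other embryo groups, the heat-stress embryos lay with the mature embryos and the standard embryos with the filling embryos. The rank correlation of log2(CPM + 1) of each heat-stress library averaged 0.927 to 0.950 over the libraries of S4 at standard temperature, which was sampled at 44 DAP, 0.896 to 0.929 over those of S3 under heat stress, 0.908 to 0.926 over those of S3 at standard temperature, and 0.835 to 0.871 over those of S2 at standard temperature. The standard libraries averaged 0.946 to 0.948 with S2 under heat stress, sampled at 17 DAP, 0.923 to 0.927 with S3 under heat stress, and 0.857 to 0.861 with S4 under heat stress. These are correlations across transcripts, which share libraries and depth, and are given as descriptions.

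A maturation index placed the same libraries along development. It is the mean log2 CPM of 5232 transcripts raised during maturation minus that of 5112 transcripts lowered. Both lists were chosen by comparing S1 with a late stage at each temperature. The 6 libraries were not compared in that choice and entered it only through the common filter, scaling and estimate of spread. The index of the heat-stress embryos was 3.74 ± 0.0652 (SD, n = 3; range 3.70 to 3.82) at 28 DAP, and that of the standard embryos was 0.065 ± 0.118 (SD, n = 3; range -0.0547 to 0.18) at 26 DAP. The groups were far apart compared with their spread. S4 embryos at standard temperature had an index of 3.85 ± 0.0105 at 44 DAP, and S2 embryos under heat stress had 0.132 ± 0.00342 at 17 DAP (SD, n = 3 each). S3 embryos averaged 2.50 at 22 DAP under heat stress and 2.40 at 36 DAP at standard temperature, and S1 embryos averaged -1.17 at 14 DAP and -1.63 at 17 DAP. The index of S1 libraries and of the late libraries that chose the lists (S3 under heat stress and S4 at standard temperature) is set in part by that choice.

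**Figure D2:**
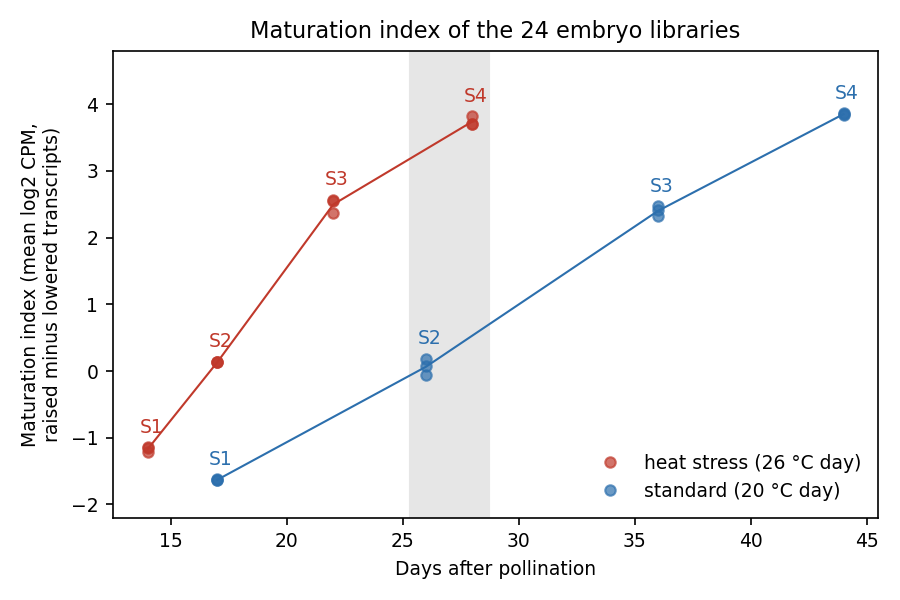
Maturation index (mean log2 CPM of raised minus lowered transcripts, y axis) against days after pollination for the 24 embryo libraries, with points for libraries and lines through group means. The grey band marks the compared ages, where the 3 heat-stress libraries (S4) lie between 3.70 and 3.82 and the 3 standard libraries (S2) between -0.0547 and 0.18.

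The lists behind the index moved in the age-matched pair as the index does. Of the maturation-raised transcripts, 3833 (73.3%) were higher in the heat-stress embryos and 325 (6.21%) lower, with a median log2 fold change of 1.21, against 31.9% higher and 35% lower over all transcripts tested. Of the maturation-lowered transcripts, 71 (1.39%) were higher and 4238 (82.9%) lower, with a median of -2.41. The median over all transcripts was -0.02. The comparisons that chose these lists did not include the 6 libraries, which entered only through the common filter, scaling and estimate of spread.

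The 5243 transcripts that were higher by at least 1 log2 unit had a common time course in the other embryo groups. Their median level relative to each transcript's own mean was -0.73 at S1, -0.46 at S2, 0.28 at S3 and 1.23 at S4 under heat stress, and -0.91, -0.75, 0.43 and 0.90 at S1 to S4 at standard temperature (log2 units). The 6124 that were lower by at least 1 unit ran the other way, with 0.88, 0.77, -0.25 and -1.42 at S1 to S4 under heat stress and 0.97, 0.88, -0.40 and -1.34 at standard temperature. The values at S4 under heat stress and S2 at standard temperature follow from how these transcripts were chosen, and the other 6 groups did not enter that choice except through the common estimate of spread. The step from S2 to S3 at standard temperature and that from S3 to S4 under heat stress each include a group used for the choice. Their sizes are therefore set in part by it. The timing of the steps cannot be compared between the temperatures from these transcripts.

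The 2 named transcripts that rose were both absent from the 26-day standard embryos. MtrunA17_Chr1g0186771, on chromosome 1 and 1035 bases long, had 343, 258 and 174 normalized CPM under heat stress, against 0 in all 3 standard libraries. It was at least 2970-fold higher, taking 3 counts over the whole standard group as the limit for a count of 0. Its counts were not whole numbers, so the quantification divided reads between it and similar transcripts, and its level is uncertain to that extent. MtrunA17_Chr2g0303041, on chromosome 2 and 375 bases long, had 229, 222 and 177 CPM under heat stress, against 0 in all 3 standard libraries, and was at least 2410-fold higher on the same limit. Adjusted p-values were 3.01e-10 and 4.12e-16 by edgeR. The other embryo groups show when they appear. MtrunA17_Chr1g0186771 averaged 31.5 ± 4.62 CPM at S3 under heat stress and 4.13 ± 2.74 CPM at S3 at standard temperature, and reached 291 ± 66.6 CPM at S4 at standard temperature (SD, n = 3 each). MtrunA17_Chr2g0303041 averaged 83.2 ± 7.13 CPM at S3 under heat stress and 13 ± 2.83 CPM at S3 at standard temperature, and reached 300 ± 9.85 CPM at S4 at standard temperature (SD, n = 3 each). Both were thus late transcripts at either temperature, with group means of at most 0.351 CPM in every S1 and S2 group.

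The 2 named transcripts that fell were abundant in every S1 and S2 group. MtrunA17_Chr1g0168781, on chromosome 1 and 1008 bases long, had 8.40, 9.56 and 4.11 CPM under heat stress, against 20200, 24700 and 16100 CPM at standard temperature, 2770-fold lower (log2 fold change -11.4, SE 0.554, adjusted p = 4.69e-14, edgeR). It was the tenth most abundant transcript of the standard embryos. MtrunA17_Chr7g0249181, on chromosome 7 and 1543 bases long, had 21.1, 20.3 and 7.10 CPM under heat stress, against 8530, 4990 and 5890 CPM at standard temperature, 400-fold lower (log2 fold change -8.65, SE 0.441, adjusted p = 1.07e-13, edgeR). Its counts were also not whole numbers, with the same limit. In both, every heat-stress library was far below every standard library. MtrunA17_Chr1g0168781 averaged 21200 CPM at S1, 10900 at S2 and 962 at S3 under heat stress, and 19400 CPM at S1, 162 at S3 and 4.35 at S4 at standard temperature. MtrunA17_Chr7g0249181 averaged 7050 CPM at S1, 4060 at S2 and 486 at S3 under heat stress, and 8790 CPM at S1, 197 at S3 and 4.5 at S4 at standard temperature. The decline lay mostly after S2 at both temperatures.

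**Figure D3:**
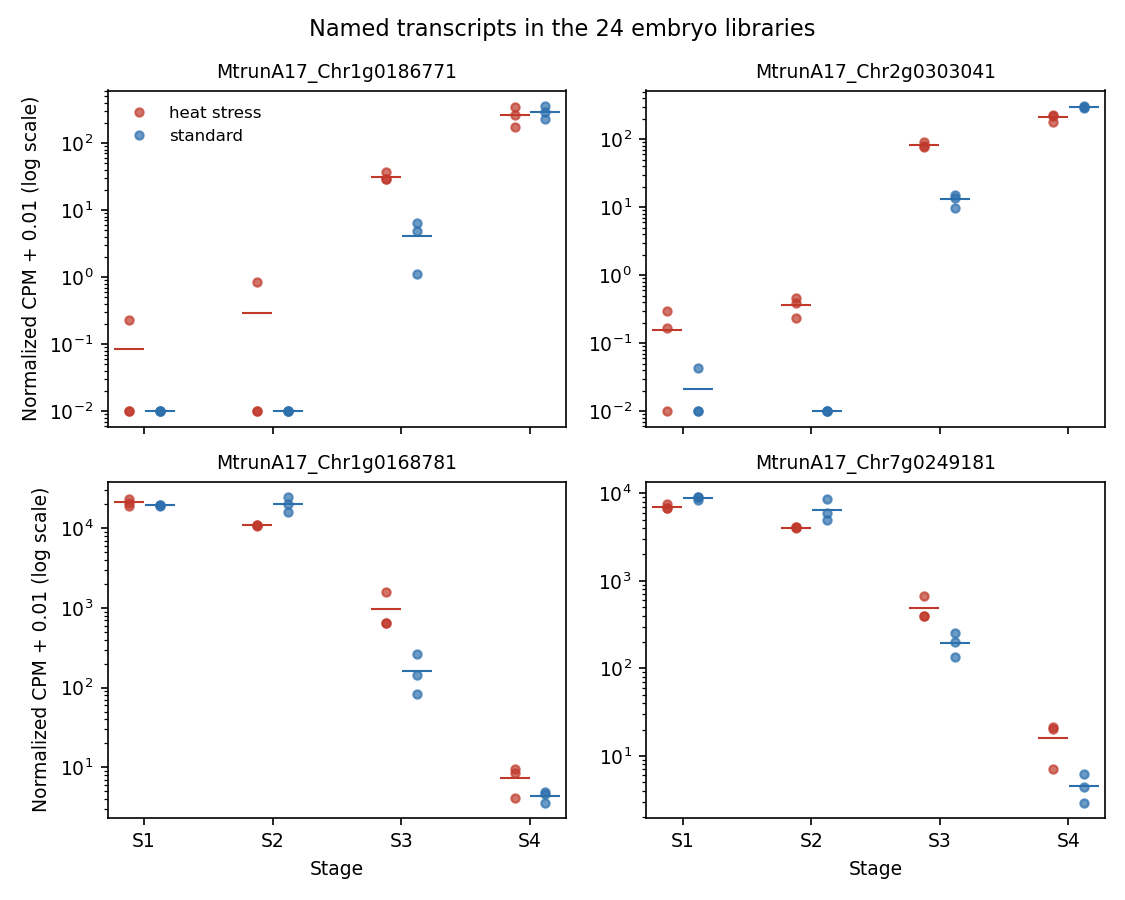
Normalized CPM plus 0.01 (log scale, y axis) of the named transcripts by stage, with points for libraries and horizontal dashes for group means. The upper transcripts are near or at 0 at S1 and S2 and between 174 and 343 CPM at S4 under heat stress, and the lower transcripts have at least 3980 CPM in every S1 and S2 library and at most 21.1 CPM in every S4 library.

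The same stages compared with the temperatures exchanged gave a nearly parallel picture. This mirrored pair, S4 embryos at standard temperature (44 DAP) minus S2 embryos under heat stress (17 DAP), shares no library with the age-matched pair. It had 13521 calls (61.5% of those tested), 6309 higher and 7212 lower. Of the 14709 transcripts called in the age-matched pair, 13671 (92.9%) had the same direction in the mirrored pair, and 11205 (76.2%) were also called there in that direction. Among transcripts not called in the age-matched pair the share with the same direction was 63.4%, and over all tested it was 83.1%. Across transcripts, the log2 fold changes of both pairs had r = 0.83 and rho = 0.81. The 4 named transcripts had mirrored log2 fold changes of 10, 9.71, -11.3 and -9.82, in the order given above.

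The transcripts that were higher in the heat-stress embryos and had the opposite sign in the mirrored pair numbered 677, or 9.66% of the 7011 that were higher, and they were steadily present in the other tissues of the seed. The median level of these 677 was 4.46, 4.28 and 10.4 CPM in the 28-day heat-stress embryos, against 0.421, 0.378 and 0.398 CPM in the 26-day standard embryos. In the other embryo groups the median was 1.32 to 1.63 CPM at S4 at standard temperature, 1.40 to 1.52 CPM at S2 under heat stress, 0.662 to 2.41 CPM in the S1 and S3 libraries under heat stress, and 0.725 to 1.08 CPM at S1 at standard temperature. S3 embryos at standard temperature were split, with 7.48 and 8.59 CPM in replicates 1 and 3 but 0.969 CPM in replicate 2. In endosperm and seed coat the same 677 transcripts had medians of 9.02 to 14.0 CPM in the 16 endosperm libraries and 9.80 to 10.8 CPM in the 8 seed coat libraries, whatever the stage or temperature. Presence in these tissues was not particular to the 677. The 6334 that were higher in both pairs had median group levels of 14.9 to 21.5 CPM in endosperm and 13.2 to 14 CPM in seed coat. Their median was 19.9 CPM in the 28-day heat-stress embryos and 2.82 CPM in the 26-day standard embryos. Heat-stress replicate 3 was the highest of the 3 heat-stress libraries for 659 of them (97.3%), against 83.7% of the 6334 transcripts that were higher in both pairs. The replicates were ranked on library totals, where a typical transcript is higher in a library with a larger TMM factor. That factor was 1.59 for replicate 3, against 1.25 and 1.24 for replicates 1 and 2. Both shares and the level of 10.4 CPM are therefore raised in part by the scale. Without replicate 3, 423 of the 677 (62.5%) were still called in the same direction, against 92.5% of the 6334, and without any 1 of the standard libraries 72.2% to 73.7% of the 677 were. Transcripts that were lower with the opposite sign in the mirrored pair, 361 (4.69%) of the 7698 that were lower, had the same features in part. Of these 361, 61.2% were still called without replicate 3. Their median group levels were 16.5 to 22.7 CPM in endosperm and 18.7 to 23.9 CPM in seed coat. They were 9.60 CPM in the 28-day heat-stress embryos and 7 CPM in the 26-day standard embryos. CPM in this paragraph is on library totals, on which the median transcript was higher by 1.14 log2 units in the heat-stress embryos. The calls are on the TMM scale, where the 361 had a median log2 fold change of -0.72. The part of RNA from other tissues in these transcripts was not tested, and they were grouped by measured values, so these levels are a description. Together the 677 transcripts held 0.686%, 0.663% and 1.5% of the counts in the heat-stress embryos, against 0.130%, 0.135% and 0.126% in the standard embryos.

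**Figure D4:**
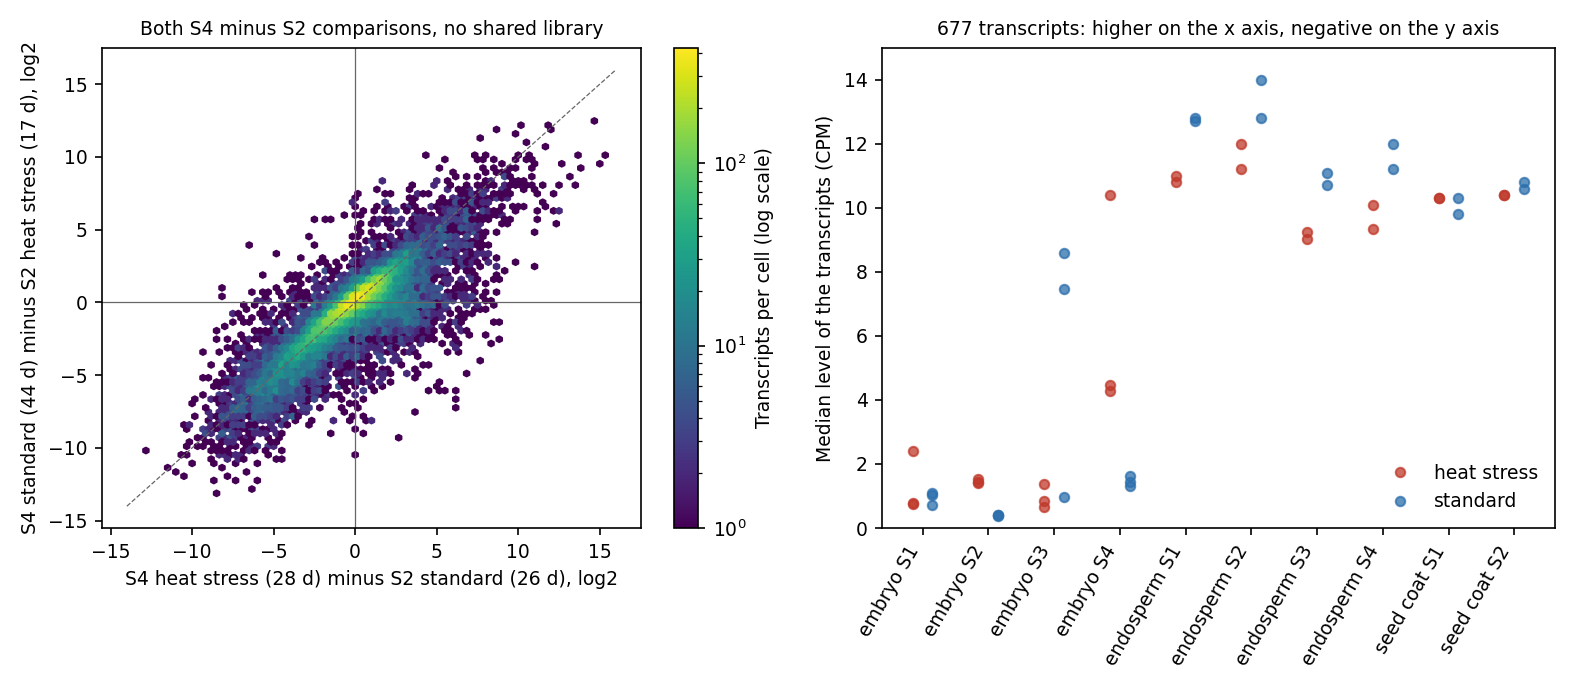
Left, log2 fold change of the age-matched pair (x axis) against that of the mirrored pair (y axis) for 21992 transcripts, coloured by transcripts per cell, with the line of equality dashed. Right, median CPM per library, on library totals, of the 677 transcripts that are higher in the age-matched pair and have the opposite sign in the mirrored pair. The medians are at most 10.4 CPM in embryo libraries and between 9.02 and 14.0 CPM in every endosperm and seed coat library.

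The age-matched difference of each transcript can be written as the sum of a stage part, the mean S4 minus S2 difference at both temperatures, and a temperature part, the mean heat-stress minus standard difference at both stages. The stage part was called for 15922 transcripts (72.4%) and the temperature part for 1830 (8.32%), of which 925 were higher and 905 lower. Among the 14709 age-matched calls, the stage part was called for 13720 and the temperature part for 1486, and for 332 the temperature part but not the stage part was called. The median absolute size was 1.58 log2 units for the stage part and 0.26 for the temperature part among these calls. A stage part larger than the temperature part is the same condition as an equal sign in both pairs, so its share is the 92.9% given above. These parts share the 6 libraries with the age-matched pair and are given beside it as its decomposition. Larger temperature parts were mostly upward: with an absolute value of at least 1, 531 were higher and 180 lower. That split was not computed without heat-stress replicate 3, so how far it rests on that library is not known. The temperature calls depended on single libraries. Their number was 980 without heat-stress replicate 3, and leaving out any library of the S2 and S4 groups other than heat-stress S4 replicates 1 and 2 brought it to between 934 and 1162.

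At equal stage the differences were far fewer. S4 embryos under heat stress (28 DAP) against S4 embryos at standard temperature (44 DAP) gave 2332 calls (10.6%), 1213 higher and 1119 lower, with 751 calls without heat-stress replicate 3 and 758 to 1031 without a replicate of S4 at standard temperature. That pair shares the heat-stress libraries with the age-matched pair. S2 embryos under heat stress (17 DAP) against S2 embryos at standard temperature (26 DAP) gave 293 calls (1.33%), 141 higher and 152 lower, and 3972 transcripts at an unadjusted p below 0.05. Its count was 108 to 141 without any 1 replicate of S2 under heat stress or without standard replicate 2 or 3. That pair shares the standard libraries. The difference between these equal-stage differences was called for 328 transcripts (1.49%), 153 positive and 175 negative, and on library totals alone for 1414, 135 positive and 1279 negative. MtrunA17_Chr7g0249181 was one of them, with 16.2 ± 7.86 CPM at S4 under heat stress against 4.5 ± 1.63 CPM at S4 at standard temperature (SD, n = 3 each; log2 fold change 1.84, adjusted p = 0.00139, edgeR) and a difference between stages of 2.51 (adjusted p = 0.00371, edgeR). Its S4 level was therefore higher under heat stress, although it was 400-fold lower than at S2 at standard temperature.

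Transcripts that differed between heat stress and standard temperature at both S1 and S3 had no common direction in the age-matched pair on the TMM scale. The S1 groups also differed in maturation index, with means of -1.17 at 14 DAP under heat stress and -1.63 at 17 DAP at standard temperature. Whether members of these lists differed by temperature or by development was not tested. Of 702 transcripts higher under heat stress at both S1 and S3, 279 (39.7%) were higher and 296 (42.2%) lower in the 28-day heat-stress embryos, with a median log2 fold change of -0.11, and on the scale of library totals alone 416 were higher and 193 lower. Over all 21992 transcripts tested, 31.9% were higher and 35% lower, and 12651 were higher and 3950 lower on library totals. On the TMM scale the balance of directions in the list was thus near that over all. More of the list was called, 81.9% against 66.9%. On library totals a larger share of the list was lower than over all. Of 118 transcripts lower under heat stress at both S1 and S3, 39 (33.1%) were higher and 57 (48.3%) lower, with a median of -0.48, and on library totals alone 59 were higher and 32 lower. In the mirrored pair the medians were 0.02 and -0.06. Of the 702, 373 are also in the maturation-raised list and 128 in the maturation-lowered list. Of all 21992 transcripts tested, 5232 are in the first and 5112 in the second. A larger share of the 702 than of all transcripts was thus maturation-raised, and a smaller share maturation-lowered. The comparisons that chose these lists share S1 and S3 libraries, so the overlaps are a description.

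Lists of the most abundant transcripts moved with the stage that chose them. Of the 100 most abundant transcripts of S4 embryos at standard temperature, 65 were higher and 20 lower in the heat-stress embryos, with a median log2 fold change of 1.18. Of the 100 most abundant of S2 embryos under heat stress, 19 were higher and 64 lower, with a median of -1.74. Over all transcripts tested 31.9% were higher and 35% lower. Both lists share 53 transcripts. The S2 list held 43.8%, 43.9% and 32.8% of the counts in the heat-stress embryos, against 77.8%, 77.8% and 79.5% in the standard embryos, and the S4 list held 50.6%, 50.6% and 40.8% against 69.3%, 70.6% and 73.2%. The S4 list thus held a smaller share of the counts in the heat-stress embryos, although most of its members were higher there.

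**Figure D5:**
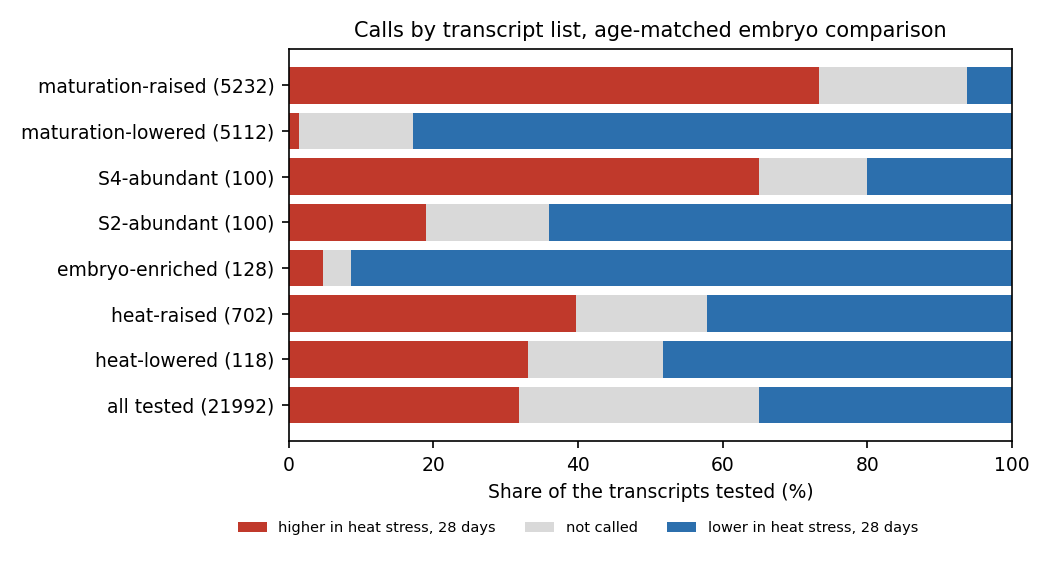
Share of the tested transcripts (%, x axis) called higher (red) or lower (blue) in the 28-day heat-stress embryos, by list, with the number tested in brackets. The maturation lists stand at 73.3% higher and 82.9% lower. The heat-raised list has 39.7% higher and 42.2% lower, the heat-lowered list 33.1% and 48.3%, and all transcripts tested 31.9% and 35%. On library totals alone, which are not drawn, the heat lists and all transcripts tested tip towards higher.

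The tissue labels were checked with lists chosen at S1 in the standard libraries, where each transcript was at least 16 times more abundant in 1 tissue than in the others. For reference, 31.9% of all 21992 transcripts tested were higher and 35% lower in the heat-stress embryos on the TMM scale. On library totals alone 12651 were higher and 3950 lower. The 128 embryo-enriched transcripts held 30.5%, 30.5% and 21.2% of the counts in the heat-stress embryos, against 72.3%, 71.9% and 73.7% in the standard embryos, and 6 were higher and 117 (91.4%) lower, with a median log2 fold change of -3.21. In S4 embryos at standard temperature the list held 23.2% to 27.0%, and in endosperm at most 13.8%. The 407 endosperm-enriched transcripts held 1.34%, 1.42% and 1.24% of the counts in the heat-stress embryos, against 0.147%, 0.162% and 0.185% in the standard embryos, and 2.41% and 3.07% in endosperm at S4 under heat stress. A single member on chromosome 6, the tenth most abundant transcript of the heat-stress embryos, accounted for 1.02% to 1.25% under heat stress and 0.117% to 0.157% at standard temperature. The other 406 held 0.164% to 0.224% under heat stress, against 0.0278% to 0.0302% at standard temperature. Of the 407, 195 to 228 were at 0 in a heat-stress library and 159 to 164 in a standard library. Of the 150 that passed the filter on low counts, 23 (15.3%) were higher and 71 (47.3%) lower on the TMM scale. On library totals alone 43 were higher and 46 lower. The 326 seed-coat-enriched transcripts held 0.135%, 0.134% and 0.172% under heat stress, against 0.0531%, 0.0552% and 0.0514% at standard temperature, with 121 to 153 and 117 to 123 members at 0. Of 224 tested, 26 (11.6%) were higher and 92 (41.1%) lower, or 41 higher and 57 lower on library totals alone. On library totals a larger share of the endosperm list and of the seed coat list was lower than over all transcripts. A single member on chromosome 2 held 0.0332% to 0.0431% under heat stress, against 0.00148% to 0.00174% at standard temperature, and the other 325 held 0.1% to 0.129% against 0.0496% to 0.0536%. These shares are on library totals, on which the median transcript was itself higher by 1.14 log2 units in the heat-stress embryos. Both shares were higher in the heat-stress embryos, and also in S4 embryos at standard temperature, with 1.39% to 1.51% for the endosperm list and 0.129% to 0.138% for the seed coat list. Their part in the age-matched differences was not tested.

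Transcripts of the organelle genomes were few. Over all transcripts tested, 31.9% were higher and 35% lower on the TMM scale. Plastid transcripts were called less often than that in both directions. Mitochondrial transcripts were called higher less often and lower about as often. The study's library preparation included oligo dT selection, and its effect on organelle shares was not tested. Plastid transcripts held 0.342%, 0.307% and 0.232% of the counts in the heat-stress embryos, against 0.186%, 0.201% and 0.179% in the standard embryos, without overlap (exact permutation p = 0.1). Of 82 tested, 0 were higher and 17 (20.7%) lower on the TMM scale, with a median log2 fold change of -0.13, whereas on library totals alone 45 were higher and 3 lower, beside 12651 higher and 3950 lower of all 21992. Mitochondrial transcripts held 0.00347% to 0.00479% under heat stress and 0.00351% to 0.00425% at standard temperature, with overlap (exact permutation p = 0.5). Of 36 tested, 0 were higher and 12 (33.3%) lower, with a median of -1.41, and on library totals alone 3 were higher and 2 lower.

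The longest transcripts were more often higher in the heat-stress embryos than the others. When transcripts were split by length into 5 classes of equal size, in the longest class, of at least 2687 bases, 40.1% of the transcripts were higher and 31.3% lower, with a median log2 fold change of 0.25, against 24.6% higher, 31.1% lower and a median of -0.05 in the shortest class. There was no steady trend, since the classes between had medians of -0.15, -0.16 and -0.02 and up to 38.8% lower. On library totals alone the medians of the longest and the shortest class were 1.44 and 1.08, beside 1.14 over all transcripts. Without heat-stress replicate 3 the median of the longest class was 0.14. In that class replicate 3 exceeded the mean of heat-stress replicates 1 and 2 by a median of 0.23 log2 units, and the mirrored pair had a median of -0.13, so the sign for long transcripts was not shared by the mirrored pair. Its relation to replicate 3 was not tested further.

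The other embryo pair of equal age had fewer calls and a different set of directions. At 17 DAP, S2 embryos under heat stress minus S1 embryos at standard temperature gave 10414 calls (47.4% of those tested), 5246 higher and 5168 lower. Of the transcripts, 7575 were called in both pairs, 51.5% of the age-matched calls near 27 days and 72.7% of the calls at 17 days, and of these 62.9% had the same direction. Across transcripts the log2 fold changes had r = 0.245 and rho = 0.284. The pairs share no library. The difference between them was called for 11607 transcripts (52.8%), of which 4681 were positive and 6926 negative, and on library totals alone 85.9% were positive. MtrunA17_Chr1g0168781 had a difference of -10.6 and MtrunA17_Chr7g0249181 of -7.54. Both were abundant in every library of the 17-day pair.

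Endosperm was sampled at the same ages, stages and temperatures, and its fold changes were mostly the smaller where the tissues differed. With 2 libraries against 2, in a fit of its own whose number of calls cannot be set against that of the embryo, 14340 of 26400 transcripts (54.3%) were called in endosperm, 7394 higher and 6946 lower. Of 20810 transcripts tested in both tissues, 8959 were called in both, 63.8% of the embryo calls and 73.7% of the endosperm calls among them, and 85.4% of these had the same direction, 4243 higher and 3410 lower. Directions were opposite for 1306, of which 499 were higher in embryo and 807 lower. In 1 fit of both tissues, the age-matched difference itself differed between embryo and endosperm for 9650 of 27952 transcripts (34.5%), and for 73.3% of them the absolute change was larger in embryo. Over all transcripts of that fit the median absolute log2 fold change was 1.32 in embryo and 0.85 in endosperm. On library totals alone 15198 differed, so this number depends on the scale.

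The age-matched change differed between the tissues for the 2 named transcripts that fell, and the test did not call a difference for the 2 that rose. MtrunA17_Chr2g0303041 had 137 and 85.5 CPM in endosperm at S4 under heat stress, against 0 in both S2 standard libraries, and its change was called there too (adjusted p = 6.27e-10, edgeR). Its difference between the tissues was not called (adjusted p = 1, edgeR). MtrunA17_Chr1g0186771 was at 0 in both endosperm libraries at S4 under heat stress but had 12.8 and 10.2 CPM at S4 at standard temperature. Its difference between the tissues was not called (adjusted p = 0.138, edgeR). MtrunA17_Chr1g0168781 had 12.1 and 11.5 CPM in endosperm at S4 under heat stress, against 174 and 206 CPM at S2 at standard temperature, a log2 fold change of -4.01, and the change in embryo was larger by -7.40 (adjusted p = 8.06e-12, edgeR). MtrunA17_Chr7g0249181 had 7.47 and 12.2 CPM in endosperm at S4 under heat stress, against 28.3 and 34.1 CPM at S2 at standard temperature. Its log2 fold change in endosperm was -1.66, and the tissues differed by -6.96 (adjusted p = 1.28e-12, edgeR).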

How the data were processed

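RNA from isolated embryo, endosperm and seed coat was sequenced as short single-end reads on a BGISEQ-500. The authors mapped the reads with Salmon to the Medicago truncatula transcriptome version 5 and deposited estimated counts per transcript, of which 29.7% of those above 0 were not whole numbers; these were rounded here. Reads shared by similar transcripts are divided by that method, so levels within gene families are uncertain. The ImpulseDE2 test that the study used for embryo was not run.

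Groups came from the labels. Transcripts were kept with filterByExpr (minimum count 10, minimum total 15), scaled by TMM and tested with edgeR 4.0.16 (R 4.3.3) by the quasi-likelihood F test, with Benjamini-Hochberg adjustment over all transcripts tested and a threshold of 0.01. Embryo contrasts were fitted on 24 libraries, endosperm on 16 and both tissues together on 40. Totals of 18507952 to 20084649 counts in the 6 libraries set the precision, and limits for a count of 0 cover counting error only. Library measures were tested with exact two-sided permutation tests, 3 against 3. DESeq2 1.42.0 was an alternative.

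Tissue lists held transcripts of at least 20 CPM, and 16 times (CPM + 1) the level of the other tissues, at S1 at standard temperature. The named transcripts were, among those called in every fit that left out 1 of the 6 libraries, with at least 100 CPM in the higher group and without overlap between groups, the 2 higher and the 2 lower with the largest fold change; 927 qualified. Lists and members were chosen with earlier results of these data known. The grouping by direction in the mirrored pair was chosen after seeing the data. Lists that need gene names (storage proteins, heat shock proteins and others) were not analysed here, since the identifiers carry no names.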

Additional observations from a re-analysis of the deposited data

Results flagged for a closer look

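Differences between groups led to 8 results being listed here. The age-matched difference itself differed between embryo and endosperm for 9650 transcripts, and by -7.40 log2 units for MtrunA17_Chr1g0168781 and -6.96 for MtrunA17_Chr7g0249181, both of which fell more in embryo. The age-matched difference near 27 days differed from that at 17 days for 11607 transcripts, and by -10.6 log2 units for MtrunA17_Chr1g0168781 and -7.54 for MtrunA17_Chr7g0249181. The heat-stress minus standard difference at S4 differed from that at S2 for 328 transcripts, and by 2.51 log2 units for MtrunA17_Chr7g0249181. Each was tested as a contrast of contrasts with edgeR's quasi-likelihood test. Groups of 3 libraries are too small for a test of single outlying libraries.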

How the results depend on the processing

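With 3 libraries a group, library measures could not reach p below 0.1. The 4 named transcripts kept their direction and call in every alternative in which they were tested; the 2 that rose did not pass the minimum of 10 counts in every library. With DESeq2 14744 age-matched transcripts were called, 14450 of them shared with the same direction, and with the 6 libraries alone 12508 of 19147 tested. The replicate block gave 14560. Replicate numbers did not pair the libraries: deviations of same-numbered libraries correlated at 0.0271, 0.0254 and 0.0325, although every library correlated best with its own number. The block moved no count of calls past 1.5 times.

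Leaving out 1 library gave 13684 to 14257 age-matched calls, 12558 to 12683 in the mirrored pair, 15547 to 15852 for the stage part, 934 to 1854 for the temperature part, 168 to 300 for the stage by temperature difference, 751 to 2275 at equal stage S4, 108 to 338 at equal stage S2, 11017 to 11377 for the difference from the 17-day pair, 11962 to 13418 in endosperm and 8075 to 9819 for the difference between tissues.

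On library totals alone, the age-matched pair shared 10961 calls with the same direction, the stage by temperature difference had 1414 calls, equal stage S2 had 776 and the difference between tissues 15198. The share of higher calls moved on that scale to 69.7% (46.7% with TMM) in the mirrored pair, 72.7% (47.7%) for the stage part, 75.8% (50.5%) for the temperature part, 9.55% (46.6%) for the stage by temperature difference, 41% (52%) at equal stage S4, 91.2% (48.1%) at equal stage S2, 26% (51.6%) in endosperm and 91.2% (46%) for the difference between tissues. With RLE the stage by temperature share was 61%. A minimum of 10 counts in every library left 13557 transcripts to test, with 9598 age-matched, 8888 mirrored and 10337 stage calls. Without a filter equal stage S2 had 502 calls. At an adjusted p below 0.05 the temperature part had 4664 calls, the stage by temperature difference 1036, equal stage S4 5739 and equal stage S2 915. With an absolute log2 fold change of at least 1 there were 711 calls for the temperature part, 1024 at equal stage S4, 185 at equal stage S2 and 8818 in endosperm. DESeq2 called 727 for the stage by temperature difference and 719 at equal stage S2.

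Of the medians of transcript lists under the alternatives, 108 moved by more than the spread between replicates and 267 did not.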
